A study of Saccharomyces cerevisiae with 2 samples.

Results

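The 10 genes described here encode the pyruvate decarboxylases (PDC1, PDC5 and PDC6) and the numbered alcohol dehydrogenases (ADH1 to ADH7) of the budding yeast Saccharomyces cerevisiae. They were chosen by symbol, and all 10 were found among the 5734 coding sequences of the longer deposited table. Messenger RNA was sequenced from 2 strains, 2-10515, labelled wild type, and Y518, labelled mutant and described in the series title as a high producer of glutathione. The alleles that separate the strains are not given in the labels. Both strains were grown from a seed culture of 18 h at 30 °C and 180 rpm and harvested after 24 h of fermentation. There was 1 library per strain, so every difference below compares 2 libraries, has no replicate check and carries no p-value. The library totals were 4.71 M uniquely mapped reads for 2-10515 and 4.32 M for Y518.

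Pyruvate decarboxylase splits pyruvate, the end product of glycolysis, into acetaldehyde and carbon dioxide, with thiamine diphosphate as cofactor. Alcohol dehydrogenases then reduce acetaldehyde to ethanol and return NADH to NAD+, or run the other way when ethanol is the carbon source. Yeast keeps several isozymes for each step. PDC1 and ADH1 are the fermentative forms of growing cells, ADH2 is the glucose-repressed form known for ethanol oxidation, and the rest differ in compartment, cofactor or regulation.

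The isozyme genes resemble each other, and reads that match more than 1 gene were not counted, so the sequences bear on every value below. ADH1 and ADH2 were identical at 930 of 1047 coding bases (88.8%). Their longest identical run was 189 bases, shown here with 15 flanking bases on each side (bases 178 to 396, counted from 1 at the start codon). Capitals mark the bases that differ between the pair, and a read that lies wholly in the stretch between them matches both genes.
ADH1: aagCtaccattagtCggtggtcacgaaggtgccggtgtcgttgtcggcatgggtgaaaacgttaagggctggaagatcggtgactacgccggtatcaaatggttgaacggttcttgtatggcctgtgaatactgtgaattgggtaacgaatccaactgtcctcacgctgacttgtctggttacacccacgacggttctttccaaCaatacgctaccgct
ADH2: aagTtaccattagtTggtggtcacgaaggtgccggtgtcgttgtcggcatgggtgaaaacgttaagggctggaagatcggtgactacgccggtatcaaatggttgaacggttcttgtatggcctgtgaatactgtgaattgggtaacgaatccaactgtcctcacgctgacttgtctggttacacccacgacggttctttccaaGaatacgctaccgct
Only 3 of these 219 bases differed. PDC1 and PDC5 were identical at 1476 of 1692 bases (87.2%), with a longest run of 65 bases, and PDC6 was 75.4% identical to PDC1. The same window of the 3 genes (bases 331 to 425) is shown to compare them. Capitals in PDC1 and PDC5 mark bases that differ between this pair, and capitals in PDC6 mark bases that differ from at least 1 of the pair.
PDC1: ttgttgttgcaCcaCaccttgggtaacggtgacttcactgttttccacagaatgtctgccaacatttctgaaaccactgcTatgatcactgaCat
PDC5: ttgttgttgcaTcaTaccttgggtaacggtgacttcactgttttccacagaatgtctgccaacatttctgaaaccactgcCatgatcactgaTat
PDC6: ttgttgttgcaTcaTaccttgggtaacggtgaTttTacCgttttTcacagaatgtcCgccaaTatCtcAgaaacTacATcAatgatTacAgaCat
PDC6 differed from PDC1 at 16 of these 95 bases and PDC5 at 4. The sequences are the RefSeq transcript records named in the deposited tables, read from the R64 reference, where version and coding length matched for all 10 genes. ADH1 lies on chromosome XV, ADH2, ADH3 and ADH6 on XIII, PDC1 and PDC5 on XII, PDC6 and ADH4 on VII, ADH5 on II and ADH7 on III. Every other ADH pair shared at most 23 identical bases in a row.

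Levels are given in RPKM, reads per kilobase of coding length scaled to the unique reads of the library, which allows levels of different genes to be compared within a library. The comparison took in genes whose 2 values averaged 5 RPKM or more, and a gene was called higher or lower at a 2-fold difference in RPKM after adding 1. Of the 10 genes, all of which passed the minimum, 3 were called higher in Y518 (PDC5, PDC6 and ADH1), 2 lower (ADH6 and ADH7) and 5 were within 2-fold. Over all 5415 genes compared, 19.9% were called higher and 8.88% lower, with a median log2 ratio of 0.27 in favour of Y518. After centring on that median, 13.2% of all genes were called higher and 13.6% lower. Centred in that way, PDC5 and PDC6 were the 2 members called higher, ADH1 was within 2-fold, and ADH4 joined ADH6 and ADH7 as lower.

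**Figure D1:**
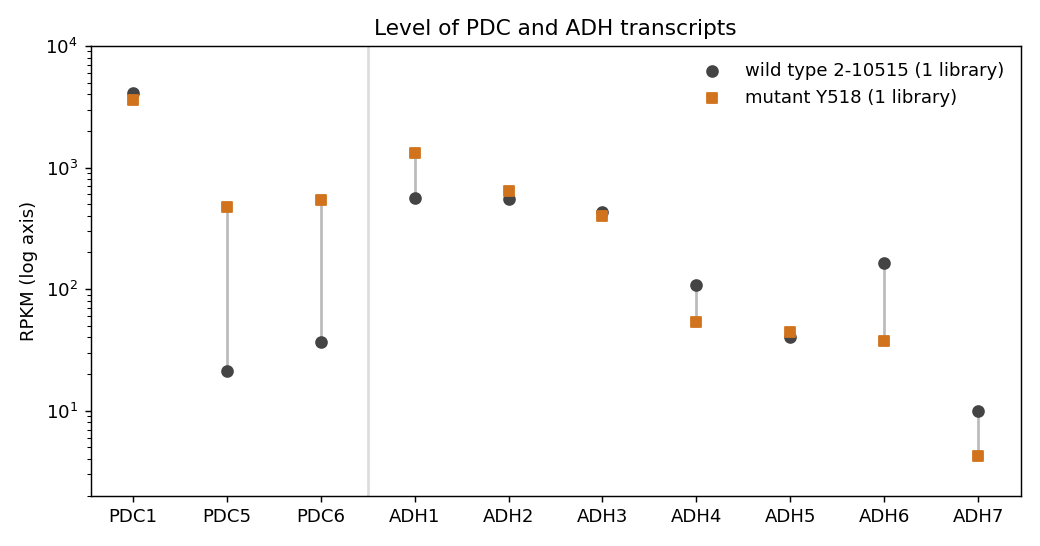
RPKM (log axis) of each gene in the wild-type library (circles) and the Y518 library (squares), 1 library each. PDC5 and PDC6 were at 21.3 and 37.0 RPKM in the wild type and at 476 and 540 RPKM in Y518, while PDC1 was at 4069 and 3624 RPKM.

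PDC1, the main pyruvate decarboxylase gene, was by level the most abundant of the 10 in both libraries. It had 32415 reads in 2-10515 and 26474 in Y518, which is 4069 and 3624 RPKM. That placed it 28th and 22nd among all genes by RPKM. The level was 1.12-fold lower in Y518 (95% counting interval 1.10 to 1.14), a log2 ratio of -0.17 that became -0.44 after centring and stayed within 2-fold. Reads covered 99.9% and 99.7% of its length.

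Both minor decarboxylase genes were called higher in Y518. PDC5, known in laboratory strains for its high expression when PDC1 is deleted or thiamine is scarce, had 170 reads (21.3 RPKM) in 2-10515 and 3477 reads (476 RPKM) in Y518. The level was 22.3-fold higher in Y518 (19.1 to 26.2), and it ranked 3899th among all genes by RPKM in the wild type and 392nd in Y518. Reads covered 88.0% of PDC5 in 2-10515, where genes of like read number had a median of 96.0%, and 99.5% in Y518. PDC6, known for expression under sulfur limitation, had 295 reads (37.0 RPKM) and 3946 reads (540 RPKM). It was 14.6-fold higher (13.0 to 16.5), its ranks were 2932nd and 331st, and 96.8% and 99.7% of its length was covered. Their log2 ratios in RPKM + 1, 4.42 and 3.83, lay above those of 99.4% and 99.0% of all genes compared. Among the 6 nearest genes on the chromosome, log2 ratios ran from -0.59 to 1.89 around PDC5 and from -1.12 to 1.94 around PDC6, below the ratio of the member itself in each case.

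Within the set, PDC1 held 98.6% of the PDC reads in 2-10515 (exact binomial 95% interval 98.5 to 98.7) and 78.1% in Y518 (77.7 to 78.5). The coding lengths of all 3 genes are equal, so shares of reads and of RPKM are the same, and a share does not depend on how the libraries are scaled. PDC5 held 0.517% (0.442 to 0.601) in 2-10515 and 10.3% (9.94 to 10.6) in Y518. PDC6 held 0.897% (0.798 to 1.01) and 11.6% (11.3 to 12.0). The minor pair together supplied 1.41% of PDC reads in the wild-type library and 21.9% in the Y518 library. In 2-10515 PDC6 stood 1.74-fold above PDC5 in level (1.43 to 2.11), and in Y518 1.13-fold above it (1.08 to 1.19), so the order of the 3 genes was the same in both libraries. PDC1 exceeded PDC6, the next gene, by 109.9-fold (98.0 to 124) in the wild type and by 6.71-fold (6.49 to 6.94) in Y518.

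**Figure D2:**
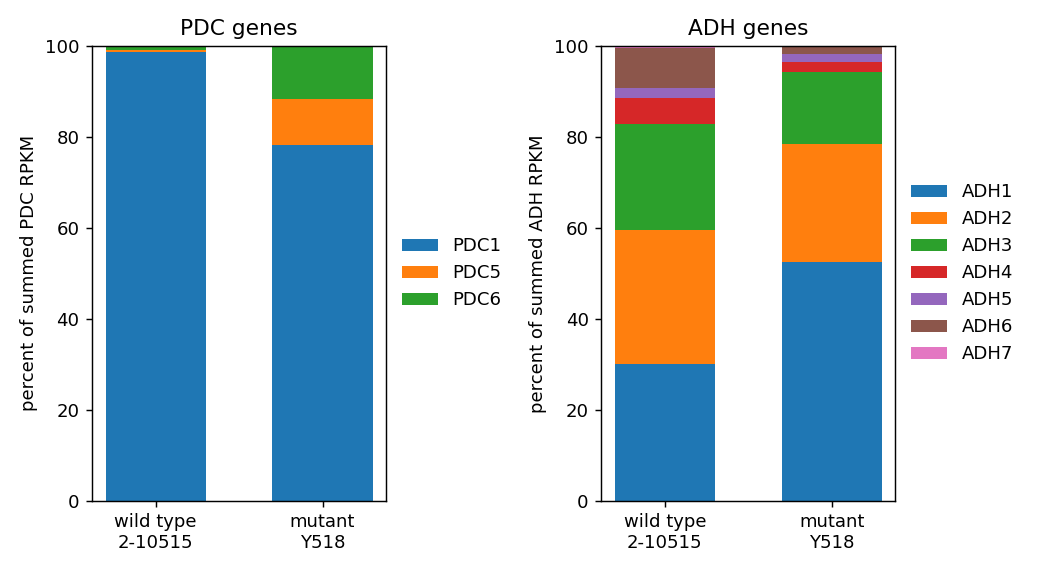
Share of the summed RPKM of the PDC genes (left) and the ADH genes (right) held by each gene, with 1 stacked bar per library. PDC1 took 98.6% of the PDC sum in the wild-type bar and 78.1% in the Y518 bar, and ADH1 took 30.1% and 52.5% of the ADH sum.

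The summed PDC level differed less between the libraries than its composition did. It was 4127 RPKM in 2-10515 and 4640 RPKM in Y518, a ratio of 1.12 (1.11 to 1.14). After centring the ratio was 0.93, so the direction of the sum depended on the scaling. The lower level of PDC1 in Y518, by 445 RPKM as deposited, stood against a surplus of 958 RPKM in PDC5 and PDC6.

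Among the alcohol dehydrogenases ADH1, the main cytosolic fermentative form, led in Y518. It had 2779 reads (564 RPKM) in 2-10515 and 5898 reads (1305 RPKM) in Y518, 2.31-fold higher (2.21 to 2.42). Its log2 ratio in RPKM + 1 was 1.21, and 0.94 after centring, below the 2-fold line. Unlike PDC5 and PDC6, ADH1 did not stand above its neighbours on the chromosome. Among 5 of them compared, 3 were called higher and 0 lower, with log2 ratios from 0.36 to 2.31. ADH2, the glucose-repressed ethanol-oxidising form, had 2721 reads (552 RPKM) and 2906 reads (643 RPKM). Its log2 ratio of 0.22 became -0.05 after centring. In the wild type the levels of ADH1 and ADH2 could not be separated beyond counting error, with a ratio of 1.02 (0.97 to 1.08). In Y518 ADH1 was 2.03-fold above ADH2 (1.94 to 2.12).

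Both genes were covered over less of their length than most other genes with as many reads. ADH1 was covered over 87.8% of its length in 2-10515 and 73.8% in Y518, leaving 128 and 274 bases without a unique read, although Y518 had more reads. ADH2 was covered over 83.0% and 90.2%, leaving 178 and 103 bases. Genes of 500 to 3000 bases with read numbers within 1.5-fold of ADH1 had a median coverage of 99.7% (195 genes) in 2-10515 and 99.8% (81 genes) in Y518, and only 7 and 3 of them were covered less. In the reference, 25-base words found once among all coding sequences span 85.8% of either gene, 50-base words 91.3%, 75-base words 96.1% and 100-base words 100%. The coverage of ADH1 in Y518 and of ADH2 in 2-10515 lay below even the shortest of these limits. Read length is not given in the labels or file headers, and neither is any sequence difference of the strains from the reference. The part of lost reads in the ADH1 and ADH2 levels was not tested, so both values are uncertain. The pair had the same number of unique 50-base words, 858, so counting per unique word could not change their ratio within a library. It therefore gives no check of the unequal coverage, and the ADH1 to ADH2 ratios and the ADH shares are uncertain as well.

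**Figure D3:**
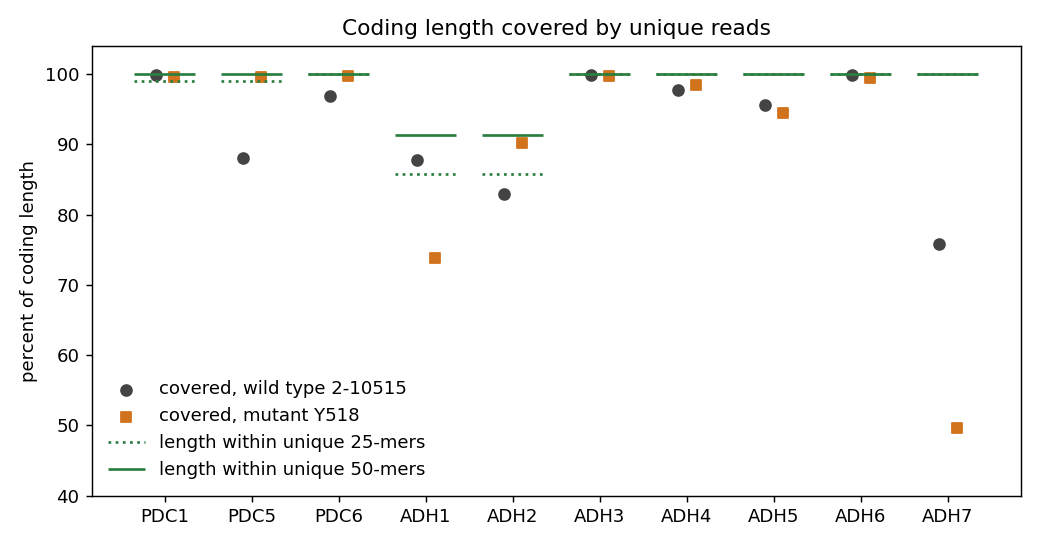
Percent of the coding length covered by unique reads in each library (circles, wild type; squares, Y518), with the length lying in 25-base (dotted) and 50-base (solid) words that occur once among reference coding sequences. ADH1 in Y518, at 73.8%, sits below both lines, and the low points of ADH7 belong to 51 and 20 reads.

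ADH3 encodes the mitochondrial alcohol dehydrogenase, which takes part in moving reducing equivalents across the inner membrane as ethanol and acetaldehyde. It had 2305 reads (434 RPKM) in 2-10515 and 1939 reads (398 RPKM) in Y518, 1.09-fold lower (1.03 to 1.16). Its log2 ratio was -0.12, and -0.40 after centring. ADH5, a minor form, had 202 reads in each library, which is 40.6 and 44.3 RPKM. Its ratio of 1.09 had an interval of 0.89 to 1.33, and its sign turned after centring (log2 -0.15).

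The remaining 3 genes had fewer reads in Y518. ADH4, which belongs to a different dehydrogenase family and is known as a target of the zinc-responsive activator Zap1, had 582 reads (108 RPKM) against 267 reads (53.8 RPKM). It was 2.00-fold lower (1.73 to 2.32), with a log2 ratio in RPKM + 1 of -0.99 that missed the 2-fold rule as deposited and passed it after centring (-1.26). ADH6 encodes an NADPH-dependent enzyme that reduces medium-chain and aromatic aldehydes. It had 835 reads (164 RPKM) in 2-10515 and 175 reads (37.4 RPKM) in Y518, 4.37-fold lower (3.71 to 5.18), and only 1.77% of all genes compared had a lower log2 ratio. ADH7, its closest relative in the set at 69.2% identical bases, had 51 reads (9.97 RPKM) against 20 (4.27 RPKM). That gave a 2.34-fold lower level in Y518 with an interval of 1.37 to 4.14, the least precise value of the 10.

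**Figure D4:**
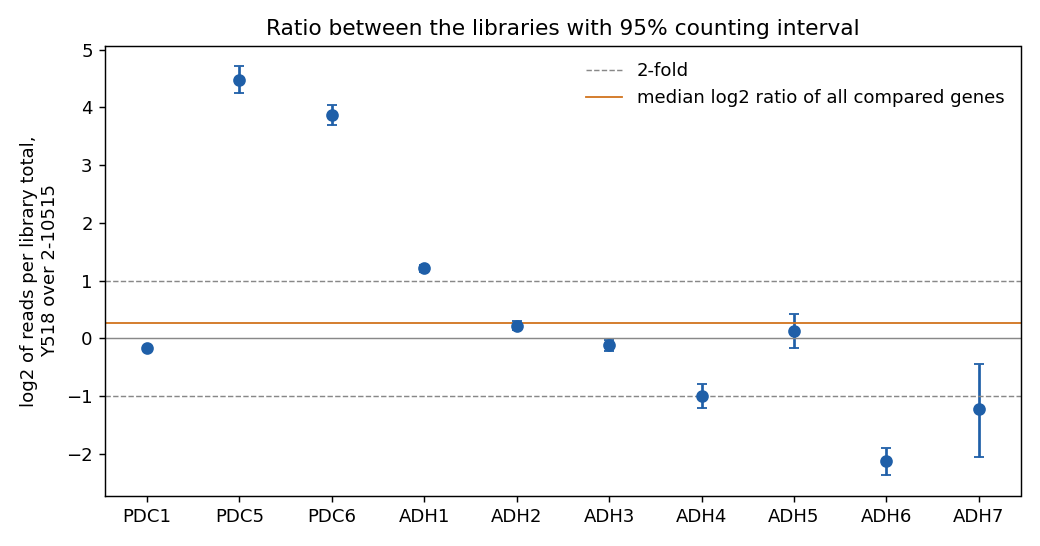
Log2 of the ratio of reads per library total, Y518 over 2-10515, for each gene, with 95% counting intervals as bars. Dashed lines mark 2-fold and the orange line the median of all compared genes at 0.27. PDC5 and PDC6 lie well above the upper dashed line and ADH1 just above it. ADH6 lies below the lower line, ADH4 on it, and ADH7 below it with an interval that crosses it.

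ADH4, ADH6 and ADH7 lie near chromosome ends, with 8, 6 and 3 protein-coding genes between them and the end, whereas the other members have 23 or more. ZRT1, the high-affinity zinc transporter gene next to ADH4 and itself a Zap1 target, had 11322 reads in 2-10515 and 3071 in Y518, a log2 ratio of -1.76. FET4, a low-affinity iron and zinc transporter gene next to ADH6, had 10037 and 1872 reads (-2.29). RDS1, a zinc cluster transcription factor gene next to ADH7, had 199 and 64 reads (-1.37). Not all neighbours were lower: HXK2, near ADH4, had a log2 ratio of 2.88 and DIA1, near ADH6, 0.78. Of the tested genes among the 3 on each side, 3 of 5 were lower and 1 higher around ADH4, 1 of 4 lower and 0 higher around ADH6, and 2 of 5 lower and 1 higher around ADH7, beside 8.88% lower and 19.9% higher over all genes. Some of these calls rest on few reads. The higher gene near ADH7 was YCR108C, with 0 reads in 2-10515 and 10 in Y518. Of the lower genes, YGL258W-A near ADH4 had 14 reads in 2-10515 and 5 in Y518, and YCR102C near ADH7 had 54 and 20. Neighbours also differed far from chromosome ends: 3 of 5 were higher and 0 lower around both ADH1 and ADH3. The largest log2 ratio near ADH3 was 3.46, while ADH3 itself was at -0.12. Whether chromosome position has a part in the lower levels was not tested.

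As a set, the ADH genes summed to 1872 RPKM in 2-10515 and 2486 RPKM in Y518, a ratio of 1.33 (1.10 after centring). ADH1 took 30.1% of the summed RPKM in 2-10515 and 52.5% in Y518. Its share of ADH reads was 29.3% (28.4 to 30.3) and 51.7% (50.8 to 52.6). ADH2 took 29.5% and 25.9% of the RPKM, and ADH3 23.2% and 16.0%. ADH6 took 8.75% and 1.51%, and ADH4 5.75% and 2.17%. ADH5 and ADH7 together stayed below 3% in either library, at 2.70% and 1.95%. ADH4 to ADH7 thus held 17.2% of the ADH level in 2-10515 and 5.63% in Y518. The order of levels in the wild type was ADH1 and ADH2 without a resolved order, then ADH3, ADH6, ADH4, ADH5 and ADH7. In Y518 it was ADH1, ADH2, ADH3, ADH4, ADH5, ADH6 and ADH7. There ADH4 was 1.21-fold above ADH5 (1.01 to 1.47), and ADH5 and ADH6 were not separated (1.18, 0.96 to 1.46). The summed PDC level was 2.21 times the summed ADH level in the wild type and 1.87 times in Y518.

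Genes around this route gave a mixed background. The shares over all genes, 19.9% higher and 8.88% lower (13.2% and 13.6% centred), belong beside every list count below. Lists held 6 to 17 compared genes, so counts near those shares are not read as results about a list. Of 16 glycolytic genes, 7 were called higher and 1 lower under either scaling, deposited or centred. Their median log2 ratio was 0.93. Besides the hexokinase genes, CDC19, the main pyruvate kinase gene and so the supplier of the substrate of PDC, had 361 RPKM in 2-10515 and 3341 RPKM in Y518. HXK1 was 8.99-fold lower and HXK2 7.56-fold higher in Y518. Among 12 genes of pyruvate supply and other uses, 1 was higher (CDC19) and 3 were lower, with a median of -0.36. The lower genes were PDA1 and PDB1, the subunits of the pyruvate dehydrogenase E1 component that competes for pyruvate in mitochondria (3.39-fold and 3.18-fold lower), and LPD1. LPD1 encodes the dihydrolipoamide dehydrogenase that pyruvate dehydrogenase shares with other complexes.

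Downstream of acetaldehyde, 2 of 8 genes of aldehyde and acetate metabolism were higher and 1 was lower (2 and 3 after centring). The higher genes were the aldehyde dehydrogenase genes ALD3 (49 and 200 reads) and ALD2 (166 and 444 reads), a tandem pair of close copies covered over 54.1% to 73.9% of their length, so their values are uncertain. ACH1, which transfers coenzyme A between acyl groups and acetate, was 4.25-fold lower. Of 14 other alcohol and aldehyde reductase genes compared, 4 were higher and 1 lower (4 and 2 once centred). SFA1, the bifunctional formaldehyde and alcohol dehydrogenase, was 10.8-fold higher and reached 483 RPKM in Y518, above ADH3. GCY1, a glycerol dehydrogenase gene, was 3.76-fold higher, and AAD6, an aryl-alcohol dehydrogenase gene, had 79 and 10 reads.

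In the route from amino acids to fusel alcohols, which needs a decarboxylase and an alcohol dehydrogenase as well, 4 of 8 genes were lower and 1 was higher (5 and 1 once centred). The list median was -1.10. ARO10, the phenylpyruvate decarboxylase gene related to the PDC genes, had 499 reads in 2-10515 and 65 in Y518, 7.04-fold lower. ARO9, an aromatic aminotransferase gene, was 4.90-fold lower, and SFA1 was the higher one. Of 14 thiamine genes compared, 4 were lower and 0 higher (6 and 0 once centred), and the list median was -0.62. THI5, THI11, THI12 and THI13 fell below the RPKM minimum and were not compared. Without that minimum, 6 genes of the list were lower and 1 was higher. The added calls were THI5 (log2 ratio -1.03) and THI12 (-1.05) as lower and THI11 (1.59) as higher. Sequences of these THI genes were not compared, and reads that match more than 1 gene were not counted. Their low levels and added calls are therefore not read as results. THI4, of thiazole synthesis, had 846 and 256 RPKM. THI2, an activator of thiamine genes, was 2.70-fold lower and THI21, a kinase gene of the pyrimidine branch, 2.40-fold lower. PDC2, which encodes the activator of PDC1 and PDC5 and of thiamine genes, had a log2 ratio of -0.58, within 2-fold.

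**Figure D5:**
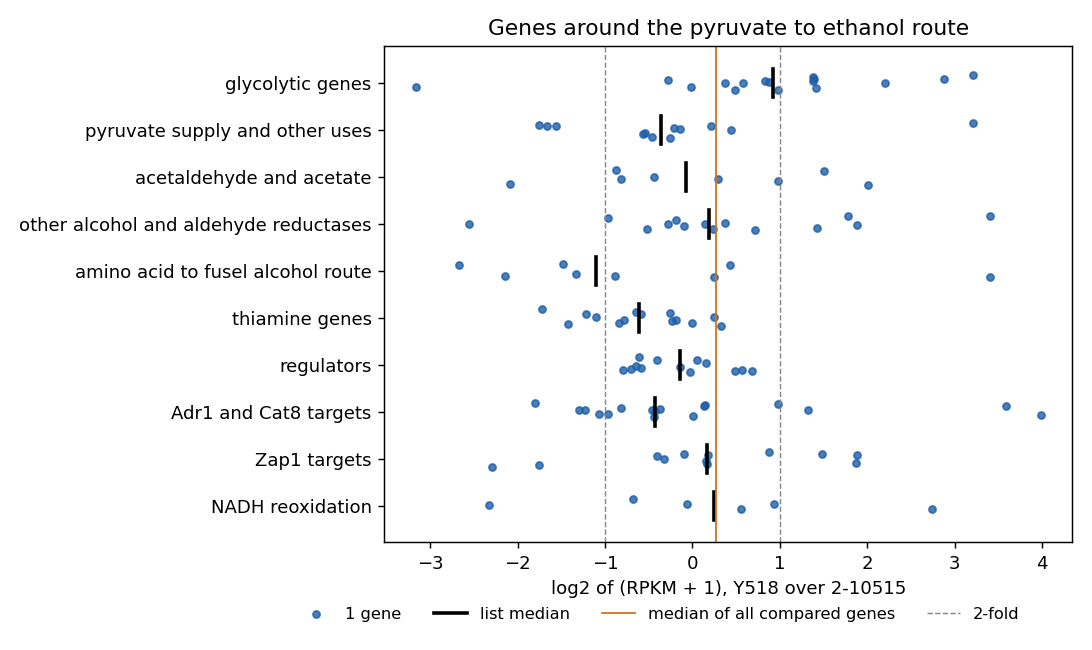
Log2 ratio of (RPKM + 1), Y518 over 2-10515, for each compared gene (points) of 10 lists around the pyruvate to ethanol route, with the list median (black) and the median of all genes (orange). Medians run from -1.10 for the fusel alcohol route to 0.93 for the glycolytic genes, and each regulator lies between the dashed 2-fold lines.

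None of the 13 regulator genes was called, with log2 ratios from -0.80 for SIP4 to 0.68 for SNF1. After centring, 1 was lower (SIP4, an activator of gluconeogenic genes). MIG1, the glucose repressor, had a log2 ratio of -0.71, and ADR1, the activator of ADH2, one of -0.02. Other known targets of Adr1 and Cat8 were split: of 17, 3 were higher and 4 lower (3 and 6 once centred), around a median of -0.43. POT1, of peroxisomal fatty acid oxidation, was 16.0-fold higher, the acetate transporter gene ADY2 12.3-fold higher, and the glycerol kinase gene GUT1 3.49-fold lower. Of 12 Zap1 targets compared, 3 were higher and 2 lower, beside 19.9% and 8.88% over all genes, with FET4 4.92-fold lower. IZH2, a membrane protein gene of zinc homeostasis, was 3.79-fold higher and MCD4, of GPI anchor synthesis, 3.92-fold higher. ZAP1 itself had a log2 ratio of -0.40. Among 6 genes of other NADH reoxidation, 1 was higher and 1 lower: NDE2, an external NADH dehydrogenase gene, was 6.83-fold higher and NDI1, the internal one, 5.03-fold lower. GUT2, the mitochondrial glycerol-3-phosphate dehydrogenase gene, was 1.92-fold higher and so within 2-fold.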

How the data were processed

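The members and gene lists were chosen with earlier results of these data known. Per the file headers, the authors deposited counts of uniquely mapped reads per coding sequence, the percent of its length covered, and RPKM. The deposited RPKM equalled the count over length and library total for every gene (0 mismatches). Not given in the sources used here: the aligner, genome build, read length and use of strand. Deposited columns of other samples numbered 0.

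With 1 library per strain no test was made. Ratios of reads per library total carry exact conditional binomial (Clopper-Pearson) 95% intervals, and shares exact binomial ones, which cover counting error only. The pseudocount was 1 RPKM and the minimum mean 5 RPKM. The named genes are the members and, in each of 10 lists, up to 3 with the largest absolute log2 ratio among those compared; LPD1, PDC2, ADR1, ZAP1 and the chromosome neighbours were added after their values were seen. SOR1 and SOR2 of the lists were not matched. Sequence words were searched in 6027 reference coding sequences. Alternative scalings used TMM from edgeR 4.0.16 and size factors from DESeq2 1.42.0. Other work used Python 3.11.15, scipy 1.17.1 and Biopython 1.88.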

Additional observations from a re-analysis of the deposited data

How the results depend on the processing

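The count of 3 members called higher and 2 called lower in Y518 came with the scaling by library totals and a pseudocount of 1 RPKM. The summed PDC ratio of 1.12 became 0.931 after centring on all genes, 0.936 with TMM and 0.927 with DESeq2 size factors. The summed ADH ratio of 1.33 became 1.10, 1.11 and 1.09, and 1.37 per unique 50-base word. With a pseudocount of 5 RPKM, 1 member, ADH6, was called lower, and ADH7, at 9.97 and 4.27 RPKM, lost its call. The ADH1 share became 32.0% per unique word and 33.2% without ADH6 and ADH7 in 2-10515, and 54.2% per unique word in Y518. These scalings bring the general offset of 0.27 towards 0. No value changed sign among members called by the 2-fold rule. No paired analysis was possible because each strain had 1 library, and no replicate could be left out. Low depth limits ADH7 most, at 51 and 20 reads.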
